A study of Mus musculus with 6 samples.

Results

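The genes described here are 3 members of the secretoglobin family, Scgb1a1, Scgb3a2 and Scgb3a1. They were taken by symbol from a deposited table of 22239 genes. The measurements were bulk RNA-seq of epithelial cells sorted by fluorescence from the lungs of mice aged 8 weeks, with 2 libraries for each of 3 populations. Bronchioalveolar stem cells (BASC), a population of the bronchioalveolar duct junction, were sorted as CCSP-mCherry+/SPC-YFP+. Alveolar type 2 (AT2) cells, the surfactant-making cells of the alveolus, were SPC-YFP+, and Club cells, secretory cells of the conducting airways, were CCSP-mCherry+. All 3 populations came from lung homogenates depleted of CD31 and CD45, markers of endothelial and blood cells.

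The CCSP reporter follows Scgb1a1, whose product is the Club cell secretory protein, and the SPC reporter follows Sftpc, the surfactant protein C gene. The sort therefore selected directly for Scgb1a1 when BASC or Club cells were set against AT2 cells. BASC and Club cells both carried the CCSP reporter. The labels give neither the level of the airway the Club cells came from, nor whether the libraries of a population came from separate animals. All p-values below therefore measure the spread between these libraries, which may be technical. In bulk libraries, fewer cells of a type and less RNA per cell cannot be told apart.

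Secretoglobins are small, disulfide-linked dimeric proteins secreted onto mucosal surfaces. SCGB1A1 is the most abundant protein of airway lining fluid made by Club cells, binds small hydrophobic molecules and is used as a marker of these cells. SCGB3A2 and SCGB3A1 are related secreted proteins of the airway epithelium. NKX2-1, FOXA and C/EBP factors are known to act on promoters of these genes in lung epithelium.

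The values are the authors' normalised read counts, in which 1 read was estimated to be worth 0.764 to 1.34 units depending on the library. The estimated depth was 10123396 to 18203252 reads per library in the genes of the table, and a floor of 3 reads corresponded to 2.29 to 4.02 units. Summed over 7 Club cell marker genes, of which 2 are the secretoglobins Scgb1a1 and Scgb3a2, the level was 1082068 to 1099785 in Club cells, 102073 to 125634 in BASC and 19188 to 21984 in AT2 cells. Summed over 8 AT2 markers, it was 77439 to 95640 in Club cells, 948683 to 961995 in BASC and 1020271 to 1114998 in AT2 cells. Sftpc stood at 290809 and 307458 in BASC, 301267 and 373742 in AT2 cells, and 240 and 224 in Club cells. The defining markers of each sorted population were thus present in it. Over the 6 libraries, summed markers reached at most 15402 for alveolar type 1 cells, 280 for immune cells, 141 for fibroblasts, 43 for basal cells, 29 for neuroendocrine cells and 27 for endothelial cells.

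Scgb1a1 (ENSMUSG00000024653) lies on the minus strand of chromosome 19, from 9083636 to 9087958 of GRCm38, and has 1 annotated transcript with 476 exonic bases. Its normalised read count was 751642 and 760675 in the Club libraries, which made it the protein-coding gene with the highest level per exonic length there. In the BASC libraries it read 43993 and 58791. In the AT2 libraries it read 413 and 302. No library of one population overlapped another, but how many of all genes separate in this way was not counted. The BASC libraries differed from each other by 1.34-fold. Per 1000 exonic bases, Scgb1a1 ranked 3 among protein-coding genes in both BASC libraries, and 307 and 483 in the AT2 libraries.

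Scgb3a2 (ENSMUSG00000038791) lies on the plus strand of chromosome 18, from 43764289 to 43767399, with 3 annotated transcripts covering 880 exonic bases. It read 59744 and 57857 in Club cells, 510 and 1175 in BASC, and 12 and 21 in AT2 cells. The populations did not overlap, which was again not counted over all genes. The BASC libraries differed by 2.30-fold, far more than the Club libraries. The AT2 values correspond to an estimated 16 and 20 reads, so the gene was detected there at a level where counting error is large.

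Scgb3a1 (ENSMUSG00000064057) lies on the plus strand of chromosome 11, from 49663610 to 49665118, with 2 annotated transcripts covering 598 exonic bases. It read 49424 and 26263 in Club cells, 222 and 47 in BASC, and 8 and 0 in AT2 cells. It varied most between libraries of the 3 members in BASC and in Club cells. Its BASC libraries differed by 4.72-fold and its Club libraries by 1.88-fold. In BASC the values stand for an estimated 166 and 51 reads, with exact 95% Poisson intervals of 190 to 259 and 34.8 to 61.4 units that do not meet. These intervals cover counting error only. In the second AT2 library it was listed at 0, where the floor of 3 reads is 3.21 units and the upper 95% Poisson limit is 3.95 units.

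**Figure D1:**
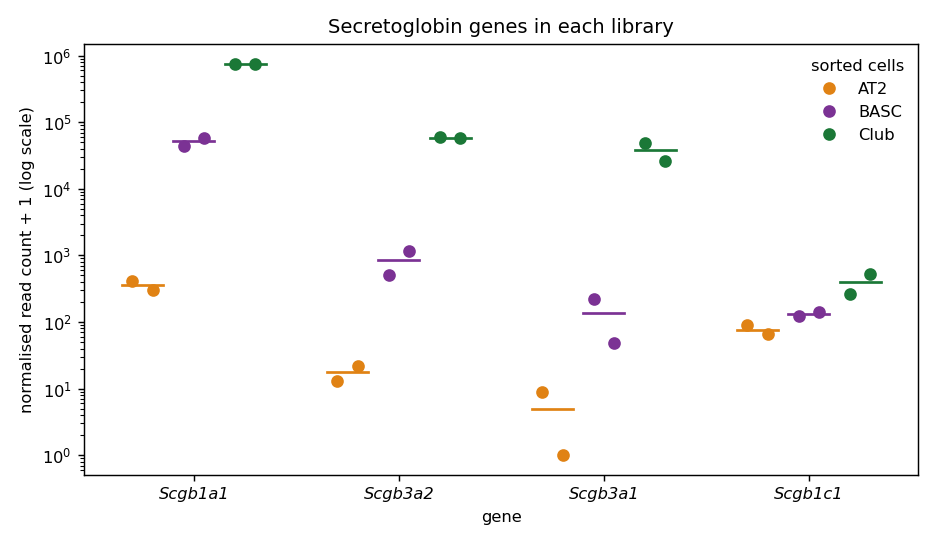
Normalised read count plus 1 (log scale, vertical) of the 3 secretoglobin genes and of Scgb1c1 (horizontal) in each library of AT2 cells, BASC and Club cells, with 1 point per library and a bar at the mean of the 2 libraries. Scgb1a1, Scgb3a2 and Scgb3a1, and also Scgb1c1, are ordered AT2, BASC, Club with no overlap. The share of all genes without overlap was not counted. The 2 BASC points of Scgb3a1, 222 and 47, are the farthest apart of the BASC pairs.

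The only other secretoglobin gene in the table was Scgb1c1 (ENSMUSG00000038801, plus strand of chromosome 7, 140845547 to 140846769, 455 exonic bases). It read 261 and 525 in Club cells, 123 and 142 in BASC, and 88 and 64 in AT2 cells. Its populations kept the same order as the members, over a much narrower range. Scgb1c1 overlaps 2 annotated genes on the opposite strand, and the strand setting of the counting is not given in the sources used here, so reads of these genes may be mixed. No annotated gene overlaps Scgb1a1, Scgb3a2 or Scgb3a1.

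Levels of different genes were compared per 1000 exonic bases. In Club cells, Scgb1a1 stood at 1588570 ± 13419 (SD, n = 2). Scgb3a2 at 66819 ± 1516 and Scgb3a1 at 63283 ± 27387 followed, and their libraries overlapped. In BASC the order was Scgb1a1 at 107966 ± 21983, Scgb3a2 at 957 ± 534, Scgb1c1 at 291 ± 29.5 and Scgb3a1 at 225 ± 207, and the last 2 overlapped. In AT2 cells Scgb1a1 stood at 751 ± 165 and Scgb1c1 at 167 ± 37.3. Scgb3a2 at 18.8 ± 7.23 and Scgb3a1 at 6.69 ± 9.46 were the lowest there. In the first AT2 library these genes stood at 13.6 and 13.4 per 1000 exonic bases, and in the second at 23.9 and 0.

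Together the 3 genes made up 6.76% and 6.40% of the values of the Club libraries. In BASC they made up 0.330% and 0.445%, and in AT2 cells 0.00312% and 0.00229%. Of the length-corrected sum of the 3, Scgb1a1 held 91.3% and 93.6% in Club cells. It held 99.0% and 98.9% in BASC, so the remainder contributed by the Scgb3a genes was smaller in both BASC libraries than in either Club library.

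Promoter sequence is shown for the secretoglobin genes of the table found in the RefSeq promoter table for GRCm38.p6, which held 2 of the 4, to place the motifs of the factors discussed further on. Each line gives the 250 bases before the RefSeq start, 5′ to 3′ on the plus strand, with matches to the searched motifs in capitals. Scgb3a1 is at chr11:49663345-49663594 and Scgb1c1 at chr7:140845315-140845564.
Scgb3a1: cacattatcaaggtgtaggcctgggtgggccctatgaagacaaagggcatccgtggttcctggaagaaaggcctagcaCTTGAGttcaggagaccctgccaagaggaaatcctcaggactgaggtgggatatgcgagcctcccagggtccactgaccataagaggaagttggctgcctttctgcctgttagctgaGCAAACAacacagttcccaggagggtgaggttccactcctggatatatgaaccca
Scgb1c1: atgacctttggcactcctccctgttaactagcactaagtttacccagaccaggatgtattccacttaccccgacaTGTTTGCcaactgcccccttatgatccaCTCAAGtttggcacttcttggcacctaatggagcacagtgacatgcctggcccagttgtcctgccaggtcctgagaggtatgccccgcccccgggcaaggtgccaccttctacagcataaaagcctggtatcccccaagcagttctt

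Both strands were searched for the letters CTCAAG for NKX2-1, TGTTTNC for FOXA, TTNNGNAA for C/EBP and TATAAA for the TATA box. The Scgb3a1 promoter held the NKX2-1 motif on the minus strand, from 172 to 167 bases before the start, and the FOXA motif on the minus strand, from 55 to 49 bases before it. The Scgb1c1 promoter held the FOXA motif from 175 to 169 and the NKX2-1 motif from 147 to 142 bases before the start, both on the plus strand. No 2 of these matches overlapped. Neither window held the letters searched for C/EBP or the TATA box. Of 32851 promoter windows of this length, 13.3% held the NKX2-1 motif, 17.8% the FOXA motif, 36.8% the C/EBP motif and 12.4% the TATA motif, and 2.50% held NKX2-1 and FOXA motifs together. These matches are a description of letters and not of binding.

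The comparison of BASC with Club cells asked how far cells that carry both reporters differ from airway Club cells. All 3 genes were lower in BASC, and by very different factors. Scgb1a1 was 14.7-fold lower (log2 fold change -3.89 ± 0.18, SE, limma adjusted p = 3.93e-05). Scgb3a2 was 69.8-fold lower (-6.24 ± 0.40, limma adjusted p = 0.000130). Scgb3a1 was 281-fold lower (-8.44 ± 1.08, limma adjusted p = 0.00343). Of the 17721 genes tested, 11.2% were called in this comparison, 5.42% lower and 5.77% higher in BASC.

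The call for Scgb3a1 rested on the second BASC library, the one at 47 units. Without it the log2 fold change was -7.34 and the limma adjusted p rose to 0.0522. The other members remained called whichever library was left out. Scgb1c1 was 2.97-fold lower in BASC, which did not pass (log2 fold change -1.48, 95% interval -2.55 to -0.41, limma adjusted p = 0.0883). The level of 5 goblet cell markers was 1734 to 1810 in BASC and 10138 to 14213 in Club cells. That of 8 ciliated cell markers was 860 to 885 in BASC and 4092 to 4136 in Club cells. Clca1, a goblet marker, read 1 and 1 in BASC and 6830 and 10667 in Club cells, most of the goblet sum there. Of the goblet markers, limma called 2 lower in BASC and 3 were not called. Of the ciliated markers, 5 were called lower and 3 were not called. The part of such cells in the secretoglobin differences was not tested.

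Set against AT2 cells, BASC had more of each gene. Scgb1a1 was 144-fold higher, which the sort selected for. Scgb3a2, on which cells were not sorted, was 51.1-fold higher in BASC (log2 fold change 5.52 ± 0.40, limma adjusted p = 0.00266). Of all genes tested, 0.632% were called here, 0.553% higher and 0.079% lower in BASC. The Scgb3a2 call was lost without either BASC library, at adjusted p = 0.0573 without the first and 0.0661 without the second by limma, with log2 fold changes of 6.12 and 4.92. Scgb3a1 had a log2 fold change of 5.11 (95% interval 2.56 to 7.66) that did not pass (limma adjusted p = 0.113), although both BASC libraries lay above both AT2 libraries. The corresponding values for Scgb1c1 were 0.81 and an interval of -0.26 to 1.88 (limma adjusted p = 0.520).

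Between AT2 and Club cells the distance was larger for each gene than in the other 2 comparisons. Scgb1a1, selected by the sort, was 2115-fold lower in AT2 cells. Scgb3a2 was 3564-fold lower (log2 fold change -11.76, limma adjusted p = 6.62e-06) and Scgb3a1 9461-fold lower (-13.55, limma adjusted p = 0.000223), the last over a mean of 4 units. Scgb1c1 was 5.17-fold lower in AT2 cells (-2.29, limma adjusted p = 0.0139), a call lost without the second AT2 library (adjusted p = 0.0672) or the second Club library (0.156). In this comparison 18.1% of genes were called, 9.71% lower and 8.42% higher in AT2 cells. The 3 comparisons share libraries, so their values are not independent of each other.

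**Figure D2:**
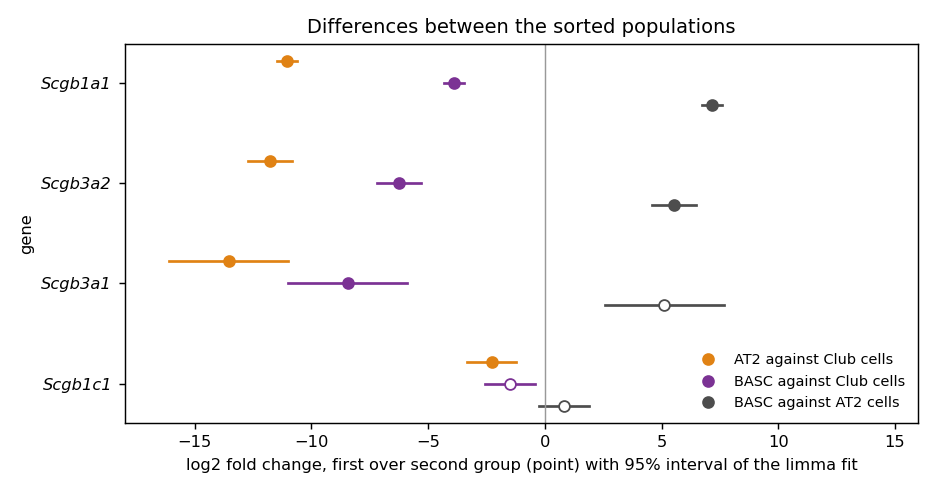
Log2 fold change of each secretoglobin gene (vertical) in the 3 comparisons, with the 95% interval of the limma fit on the horizontal axis; filled points passed an adjusted p under 0.05 and open points did not. In BASC against Club cells the intervals of Scgb1a1 (-4.32 to -3.46) and Scgb3a2 (-7.19 to -5.30) do not meet, and Scgb3a1 has the widest interval of the 3 members.

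The share of the Club level kept in BASC was computed on unlogged means, with the AT2 level subtracted from both. Scgb1a1 kept 6.75% of its Club level, and the 4 pairs of 1 BASC and 1 Club library gave 5.74% to 7.78%. Scgb3a2 kept 1.41% (0.826% to 2.00% over the pairs). Scgb3a1 kept 0.345% (0.0870% to 0.830%). The ranges of Scgb1a1 and Scgb3a2 did not meet, and those of Scgb3a2 and Scgb3a1 met only at their edges. By BASC library, the shares were 5.77% and 7.73% for Scgb1a1, 0.840% and 1.97% for Scgb3a2, and 0.576% and 0.114% for Scgb3a1. The second BASC library thus had the higher share of Scgb1a1 and Scgb3a2 and the lower share of Scgb3a1. Without subtraction of the AT2 level the shares were 6.80%, 1.43% and 0.355%, in the same order.

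These shares were set beside those of all 136 genes with a Club mean of at least 1000 and an AT2-to-Club log2 fold change of at least 3. Over these genes the median share was 6.60%, the quartiles were 1.67% and 15.4%, and the 10th and 90th percentiles were 0.0744% and 26.9%. Scgb1a1, the gene with the highest Club mean, lay beside the median, at rank 69 from the lowest share. Scgb3a2, the 4th by Club mean, lay at rank 33, and Scgb3a1, the 7th, at rank 19. Among these genes 28 kept under 1% and 63 under 5%, while 3 kept over 50%.

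The other genes with the highest Club means also differed widely. Cyp2f2, a cytochrome P450 of Club cells, kept 12.9% (11.4% to 14.5% over the pairs), and Sec14l3, a lipid-binding protein gene, kept 8.13%. Aldh1a1, a retinaldehyde dehydrogenase, kept 1.68%, close to Scgb3a2. The mucin gene Muc5b kept 0.514% and the secreted antimicrobial genes Bpifa1 and Bpifb1 kept 0.552% and 0.412%, within the range of the Scgb3a1 pairs. In the list of secreted airway proteins, 10 genes had a share, from 0% (Tff2) to 3.23% (Lypd2) with a median of 0.463%. In the list of Club cell enzymes and membrane proteins, 12 genes had a share, up to 53.6% (Cd24a) with a median of 8.84%. Scgb3a2 and Scgb3a1 lay within the range of these 10 secreted proteins, and Scgb1a1 lay above all 10. The other genes of that list did not meet the rule for a share. Of these, Hp, Wfdc2 and Clu had higher BASC-to-Club ratios of means than Scgb1a1. They were 0.299, 0.394 and 0.493 against 0.0680, without subtraction of the AT2 level. Agr2 and Dmbt1 were listed at 0 in BASC, Msln read 1 and 2, and Slpi, Lcn2, Sftpd and Cxcl15 had higher means in BASC. BASC were gated on the reporter of Scgb1a1, and not on the 10 secreted protein genes with a share or the Scgb3a genes. The part of this gate in the share of Scgb1a1 and in its ratios below was not tested.

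**Figure D3:**
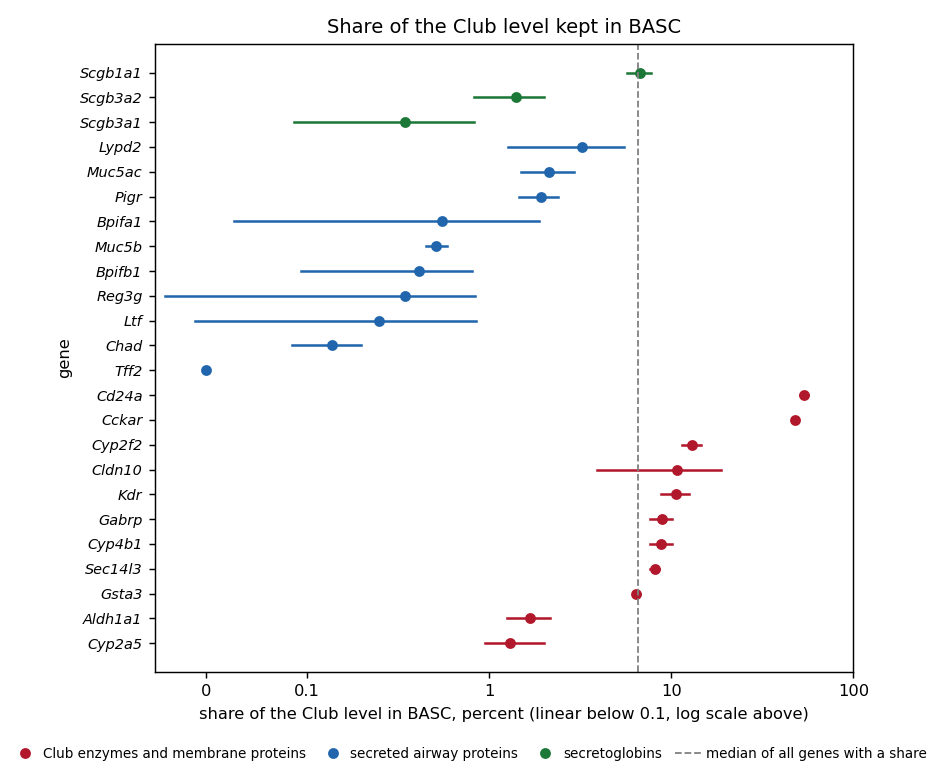
Share of the Club level kept in BASC in percent (horizontal, linear below 0.1 and log above) for the secretoglobin genes, secreted airway proteins that had a share, and Club cell enzymes and membrane proteins with a share of at least 1%; points are shares of means and bars the range over the 4 library pairs. The dashed line is the median of 136 genes, 6.60%, and Scgb1a1 lies at it while Scgb3a2 and Scgb3a1 lie to its left.

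Within a library, the ratio of 2 genes does not depend on the scaling of that library. Scgb1a1 read 86.3 and 50.0 times Scgb3a2 in the BASC libraries and 12.6 and 13.1 times in the Club libraries. Scgb1a1 read 198 and 1251 times Scgb3a1 in BASC and 15.2 and 29.0 times in Club cells. Scgb3a2 read 2.30 and 25 times Scgb3a1 in BASC and 1.21 and 2.20 times in Club cells. In all 3 ratios both BASC libraries lay above both Club libraries, narrowly for the last, where 2.30 stood beside 2.20. How often ratios of other gene pairs separate in this way was not counted.

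On the log2 scale the BASC mean exceeded the Club mean by 2.35 for Scgb1a1 over Scgb3a2, by 4.57 for Scgb1a1 over Scgb3a1 and by 2.22 for Scgb3a2 over Scgb3a1. The exact 2-sided permutation test gave p = 0.333 for each, the smallest value that 2 libraries against 2 can give, and 0.333 after adjustment over the 3 ratios. A test of this size cannot pass the 0.05 threshold whatever the values, so it says nothing for or against a difference between the genes. The size of the last difference rested on single BASC libraries: it was 0.493 without the second and 3.94 without the first.

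**Figure D4:**
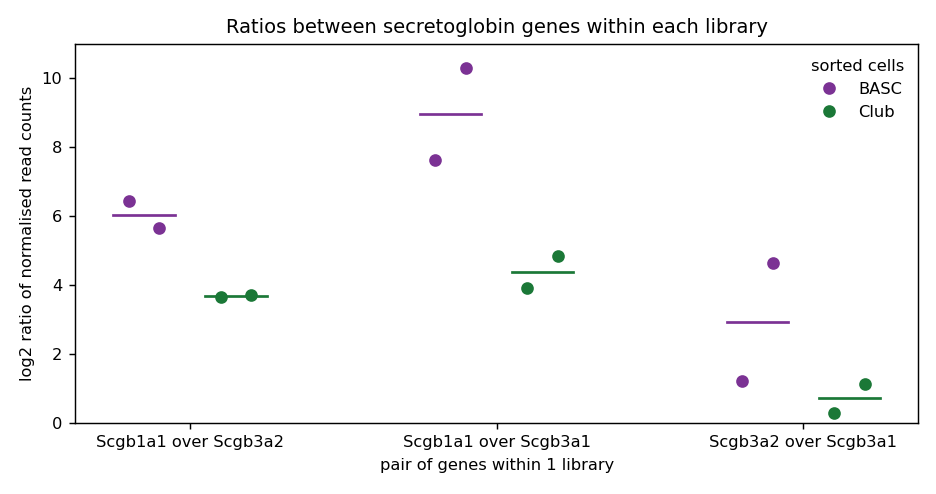
Log2 ratio of normalised read counts of 2 secretoglobin genes within each BASC and Club library (vertical) for the 3 gene pairs (horizontal), with 1 point per library and a bar at the mean. Both BASC points lie above both Club points in each pair, with the smallest gap in Scgb3a2 over Scgb3a1 (1.20 against 1.14).

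Genes with the most similar pattern were found among 9885 genes by the root mean square difference of log2 values centred per gene over the 6 libraries, a measure in log2 units that is 0 for equal patterns. The closest to Scgb1a1 were Bmpr1b at 0.494, a BMP receptor gene, Slc38a1 at 0.499, a glutamine transporter gene, Cnksr2 at 0.570, Enah at 0.575, which encodes an actin regulator, and Adam28 at 0.690. Enah, for example, read 710 and 1066 in BASC, 3 and 1 in AT2 cells, and 5332 and 5782 in Club cells. The closest to Scgb3a2 were Iqgap2 at 0.477, a scaffold protein gene, the gel-forming mucin genes Muc5ac at 0.570 and Muc5b at 0.623, Aldh1a1 at 0.671 and Bmpr1b at 0.741. Muc5b read 334 and 377 in BASC, 7 and 17 in AT2 cells, and 71552 and 62105 in Club cells.

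Scgb3a1 had no equally close gene. The nearest were Bpifb1 at 1.13, Muc5b, Aldh1a1 and Bpifa1 at 1.52, and Ltf at 1.63, which encodes lactoferrin. Bpifb1 read 151 and 23 in BASC, 1 and 2 in AT2 cells, and 22921 and 18573 in Club cells. Bpifa1 read 480 and 21 in BASC, 1 and 5 in AT2 cells, and 64511 and 25250 in Club cells. Ltf read 40 and 0 in BASC, 1 and 0 in AT2 cells, and 11097 and 4665 in Club cells. In Bpifb1, Bpifa1 and Ltf, as in Scgb3a1, the first library was the higher in both BASC and Club cells. In Muc5b (334 and 377) and Aldh1a1 (675 and 1027) the second BASC library was the higher. All of these genes were chosen on the same library values, so a shared order is not a separate result.

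Of 20 genes for secreted airway proteins, 19 were tested. In BASC against Club cells 14 fell and 3 rose, where 5.42% of all genes tested fell and 5.77% rose. The median log2 fold change was -5.53 against -0.10 over all genes tested. The fall was called in 9 of 16 genes tested when either Club library was left out. By the rule for naming genes, the largest were Tff2, a trefoil factor gene listed at 0 in both BASC libraries and at 1150 and 1390 in Club cells, at least 375-fold lower, and Ltf. Reg3g, an antimicrobial lectin gene, fell from 4930 and 3746 in Club cells to 33 and 0 in BASC, and Bpifa1 completed the 4. The 3 that rose were Lcn2, Sftpd and Cxcl15, named after their values were seen, and both AT2 libraries lay above both Club libraries in each. In BASC against AT2 cells 0.553% of all genes tested rose, and 4 of the 19. These were the mucin genes Muc5b and Muc5ac, the haptoglobin gene Hp and the immunoglobulin receptor gene Pigr. None of these 4 was called without either BASC library, where all genes together gave 3 and 4 calls in the higher direction. In AT2 against Club cells 15 of the 19 were lower and 3 higher, against 9.71% and 8.42% of all genes tested.

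Of 20 genes for Club cell enzymes and membrane proteins, 17 fell in BASC against Club cells and none rose, with a median log2 fold change of -2.84. Over all genes tested, 5.42% fell and 5.77% rose. Cyp2a5, a cytochrome P450 gene, had BASC values of 13 and 14 and Club values of 1376 and 697, and Aldh1a1 read 675 and 1027 in BASC against 52198 and 46721 (log2 fold change -5.89, limma adjusted p = 0.000209). Gabrp, a GABA-A receptor subunit gene, read 789 and 954 against 10248 and 9384 (-3.50, limma adjusted p = 0.00557). The call of Gabrp was lost without the first or the second BASC library (adjusted p = 0.0655 and 0.0611), that of Cyp2a5 without the first or the second Club library (0.159 and 0.0727), and that of Reg3g without the first Club library (0.0514). With a BASC or a Club library left out, 11 to 13 of the list fell. Against AT2 cells 10 of the 20 were higher in BASC (0.553% of all genes tested), and 2 were called without either BASC library. The largest there were Gabrp (log2 fold change 8.97), Kdr, a VEGF receptor gene (8.72), Cyp2f2 (6.18) and Cckar, the cholecystokinin A receptor gene (5.73). In AT2 against Club cells 18 of the 20 were lower and none was higher, against 9.71% and 8.42% of all genes tested.

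The list of factors known at secretoglobin promoters held 20 genes, of which 19 were tested. In BASC against Club cells 7 rose and 3 fell, with a median log2 fold change of 0.55. Over all genes tested, 5.77% rose and 5.42% fell. Nkx2-1, a homeobox factor of lung epithelium, read 6583 and 6450 in BASC, 7181 and 6482 in AT2 cells, and 2887 and 2864 in Club cells. It was higher in BASC than in Club cells (log2 fold change 1.18, limma adjusted p = 0.000656), opposite in direction to the 3 secretoglobin genes. Cebpa read 6057 and 5793 in BASC and 2296 and 2908 in Club cells (1.20, limma adjusted p = 0.00317). Cebpd rose by 0.89, Junb by 0.81, Sp3 by 0.67 and Jund by 0.56 on the log2 scale.

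Cebpb read 1316 and 1501 in BASC and 2788 and 2953 in Club cells (-1.03, limma adjusted p = 0.00579). The Notch receptor gene Notch2 and the Notch target Hes1 fell by 0.995 and 0.896 on the log2 scale. Foxa1 read 2101 and 1854 in BASC and 2567 and 2633 in Club cells (-0.40, limma adjusted p = 0.101), and Foxa2 read 1847 and 1875 against 1127 and 1409 (0.56, limma adjusted p = 0.0620). The calls of this list depended on the fit, and that of Sp3 was lost under 11 of the alternatives run. Rescaling each library to its protein-coding total, taken without mitochondrial genes and the secretoglobin members, gave 3 higher and 5 lower. A fit without the trend gave 0 higher and 1 lower. Leaving out a BASC or a Club library gave 2 or 3 higher and 2 or 3 lower. Under that rescaling the median over all genes moved from -0.10 to -0.30 in BASC against Club cells and from -0.10 to -0.36 in AT2 against Club cells, and quantile normalization moved it to 0.01 and 0.03. The share of all calls that were higher in BASC went from 51.5% to 37.3%. In AT2 against Club cells the same split went from 46.5% to 32.8%.

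Mean levels of Sox2, a factor of the conducting airway epithelium, rose from AT2 cells to BASC to Club cells. Those of Hes1, Notch1, Notch2, Cebpb and Foxa1 did so too. Sox2 read 438 and 343 in BASC, was listed at 0 in both AT2 libraries, and read 1161 and 1132 in Club cells. Its share of the Club level was 34.1%, above those of the 3 secretoglobin genes. It was at least 142-fold higher in BASC than in AT2 cells (limma adjusted p = 0.000934), a call lost without either BASC library, at adjusted p = 0.0730 without the first and 0.0661 without the second. Against Club cells its difference did not pass (-1.56, limma adjusted p = 0.114), and the same difference passed when only BASC and Club cells were fitted (adjusted p = 0.00886). Hes1 read 1667 and 1599 in BASC and 816 and 844 in AT2 cells and was the other factor called there (limma adjusted p = 0.0283), and this call was also lost without either BASC library. In AT2 against Club cells 6 of the 19 factors were higher and 6 lower, against 8.42% and 9.71% of all genes tested.

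Of 6 genes proposed as partners or receptors of secretoglobins, 4 were tested. Of these, 2 were called higher in BASC than in Club cells, against 5.77% of all genes tested. Lrp2, the endocytic receptor megalin, read 17681 and 16692 in BASC, 32098 and 29295 in AT2 cells, and 65 and 256 in Club cells (log2 fold change 7.04, limma adjusted p = 0.000276). Pla2g1b, a secreted phospholipase gene, read 1192 and 1136 in BASC, 747 and 746 in AT2 cells, and 133 and 134 in Club cells (3.11, limma adjusted p = 0.000103). Both ran opposite to the secretoglobins between BASC and Club cells. Lmbr1l, a lipocalin receptor-like gene, read 263 and 173 in BASC and 61 and 78 in Club cells and did not pass (1.61, limma adjusted p = 0.0536). In AT2 against Club cells 3 of the 4 were higher, against 8.42% of all genes tested. None of the 4 was called between BASC and AT2 cells, where limma gave 1 at an unadjusted p under 0.05.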

How the data were processed

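Libraries were made from total RNA of sorted cells with a SMARTer kit for stranded total RNA at picogram input, per the labels' protocols. Reads were aligned to GRCm38 (mm10) with STAR 2.4.0a and counted with featureCounts 1.4.5-p1, per the submitters' processing notes. How the values were normalised, and the strand setting, is not given in the sources used here. In the deposited table each gene has 1 signal value per library. From the spacing of low values, these were taken to be gene-level read counts scaled by 1 factor per library and rounded. This is an inference, on which the estimated reads, floors and Poisson intervals rest. Genes whose highest value was under 7 are not in the table. Low values did not return whole reads exactly, so no count model was run.

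Values were analysed as log2(value + 1) for 17721 genes with at least 10 in at least 2 libraries, with limma 3.58.1 in R 4.3.3 (all 6 libraries by group, eBayes with a trend, 2-sided, Benjamini-Hochberg over all genes tested, threshold 0.05). Folds are ratios of group means. The code was tested on simulated data. Exonic lengths are from GENCODE M21 and promoter sequences from RefSeq (GRCm38.p6). The members and gene lists were chosen with earlier results of these data known. Named are the members, other Scgb genes, Sftpc, 7 preset factors with other called factors, up to 4 called genes per other list and comparison with the largest change and a mean of at least 100, and the 5 most similar genes per member; some genes under this rule are not reported here. Alternatives were another pseudocount, filter, scaling, fit or block, and each library left out.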

Additional observations from a re-analysis of the deposited data

How the results depend on the processing

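No direction of a secretoglobin difference, share or ratio changed under the alternatives run. Over these and the gene counts, 214 values kept their direction and side of the threshold or stayed within their spread. A gene count was held to a looser rule, to stay within a set fold of the main count, so some counts among the 214 moved. The call of Scgb3a1 in BASC against AT2 cells was gained with a filter on a mean of at least 100 (log2 fold change 5.11, limma adjusted p = 0.0112) and with the replicate block (5.11, adjusted p = 0.0106). Same-numbered libraries did not deviate together over the genes tested (correlations 0.00600, 0.00846 and 0.0118). This gave no sign of a pairing but cannot exclude one. The block gave 1861, 120 and 3045 calls in BASC against Club, BASC against AT2 and AT2 against Club cells, against 1983, 112 and 3212 without it. Calls lost without 1 library were those of Scgb3a1 in BASC against Club cells (-7.34, adjusted p = 0.0522) and Scgb3a2 in BASC against AT2 cells (6.12 and 4.92, adjusted p = 0.0573 and 0.0661). With fewer libraries in the fit, fewer degrees of freedom remain.

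With each library left out in turn, a lone library is assumed to vary like the other groups. In BASC against Club cells the log2 fold changes then ran from -4.10 to -3.68 for Scgb1a1, -6.85 to -5.64 for Scgb3a2 and -9.55 to -7.34 for Scgb3a1. The shares ran from 5.77% to 7.73%, 0.840% to 1.97% and 0.114% to 0.576%. In BASC against AT2 cells they ran from 6.94 to 7.39, 4.92 to 6.12 and 3.52 to 6.69, and in AT2 against Club cells from -11.29 to -10.83, -12.14 to -11.38 and -15.14 to -11.97. The ratio differences ran from 1.96 to 2.75 for Scgb1a1 over Scgb3a2, 3.24 to 5.90 for Scgb1a1 over Scgb3a1 and 0.493 to 3.94 for Scgb3a2 over Scgb3a1.

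Counts of called genes moved more, and the cause was not tested. Leaving out libraries gave 480 to 913 genes higher and 196 to 975 lower in BASC against Club cells (1022 and 961 with all). In BASC against AT2 cells it gave 3 to 100 higher and 0 to 27 lower (98 and 14), and in AT2 against Club cells 902 to 1459 higher and 574 to 1832 lower (1492 and 1720). Without the trend, 499 genes were higher in BASC against Club cells, 849 were higher in AT2 against Club cells and 34 were lower in BASC against AT2 cells. In BASC against AT2 cells the filter on a mean of at least 100 gave 240 higher and 102 lower, fitting only the 2 groups gave 60 and 45, and a pseudocount of 10 gave 40 lower. Of the values of other named genes, 914 kept their side of the threshold, 106 lost it and 8 gained it. Depth limits Scgb3a1 and Scgb3a2 in AT2 cells, at 0 to 20 estimated reads.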
